A study of Mus musculus with 8 samples.

Results

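Skin RNA of wildtype mice at postnatal day 28 was set against skin RNA of wildtype mice at postnatal day 16, ages at which hair is growing for the second and the first time. The comparison covered 13278 protein-coding genes that had a value of at least 1 FPKM in at least 1 of the 2 libraries, of 14301 that reached this value in any of the 8 libraries of the series. The series holds 1 skin library for each of wildtype and hairloss mice, the second being a spontaneous mutant, at postnatal days 0, 16, 19 and 28. No strain, skin site, coat colour, sex or number of animals per library is given in the sources used here, and the hair stage is not labelled. With 1 library a group there is no replicate error and no test, so every value describes the libraries named. FPKM counts fragments relative to transcript length and library size, so levels can be set side by side across genes. Differences are given as day 28 minus day 16 on the log2(FPKM + 1) scale, which understates the fold of low genes, and a gene was called higher or lower when this difference reached 2-fold, a value of 1. By this rule 424 genes were higher at day 28, 3.19% of those tested, and 296 were lower, 2.23%. The median difference over all genes was -0.03 with an SD of 0.53 across genes. The filter itself divided neighbours of almost equal level, as in Clstn2 at 1.001 FPKM just inside it and Aqp4 at 0.999 FPKM just outside.

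A hair grows from matrix cells that divide at the base of the follicle around the dermal papilla, a cluster of fibroblasts that sends growth signals. Their daughters form the hair shaft, whose keratins are cross-linked by keratin-associated proteins (KRTAPs), and around it the inner root sheath, which moulds the shaft. Pigment cells in the follicle pass melanin to the shaft while it grows, and growth then gives way to regression (catagen) and rest (telogen).

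The estimated depth was 35500000 fragments at day 28 and 32400000 at day 16. A count of 3 fragments on a 1 kb transcript is then worth 0.0845 FPKM at day 28 and 0.0926 FPKM at day 16, counting error only. Protein-coding genes summed to 501620 FPKM at day 28, against 514248 FPKM at day 16. They made up 39.3% of all FPKM at day 28 and 20.6% at day 16, the rest belonging to noncoding genes that were not compared. Across the tested genes the log2 levels of the libraries had a Pearson correlation of 0.954, over genes that share a library and are not independent. All 4 Y-linked genes measured were present in both libraries, with summed levels of 78.3 FPKM at day 28, against 97.7 FPKM at day 16. The level of Xist, RNA of the inactive X chromosome, was 0.166 FPKM at day 28 and 0.0158 FPKM at day 16. In the other wildtype libraries Xist reached 51.3 FPKM at day 0 and 12.4 FPKM at day 19, beside Y-linked sums of 58.7 FPKM at day 0 and 62.2 FPKM at day 19.

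Keratins of the hair shaft stood at nearly the same high level at both ages. Of 9 type I and 6 type II hair shaft keratins measured, 0 differed by 2-fold, against 5.42% of all tested genes in either direction. A count of 0 in so few genes lies near that share. The ages were also paired because shaft genes are strongly expressed at both, so likeness of these keratins is in part built in. The type I median level was 309 FPKM at day 28, against 234 FPKM at day 16, and the type II median was 438 (day 28) and 502 FPKM (day 16). Krt33a stood at 681 FPKM at day 28, against 663 FPKM at day 16, and Krt31 at 343 (day 28) and 313 FPKM (day 16). Krt83, a type II partner that pairs with type I chains in the filament, stood at 679 (day 28) and 672 FPKM (day 16). The widest gap was in Krt39, at 27.4 (day 28) and 46.2 FPKM (day 16), a difference of -0.73. Krt34 followed this direction at 393 (day 28) and 594 FPKM (day 16), while Krt35, the acidic keratin of the early matrix and cuticle, stood at 309 (day 28) and 234 FPKM (day 16). Between these ages the same genes were low, the medians at day 19 being 1.86 FPKM for type I and 2.48 FPKM for type II. At day 0 they were 1.48 FPKM for type I and 0.908 FPKM for type II. The high level of shaft keratins at day 28 and day 16, with a low level at day 19, is the pattern by which both ages are called times of hair growth here.

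**Figure D1:**
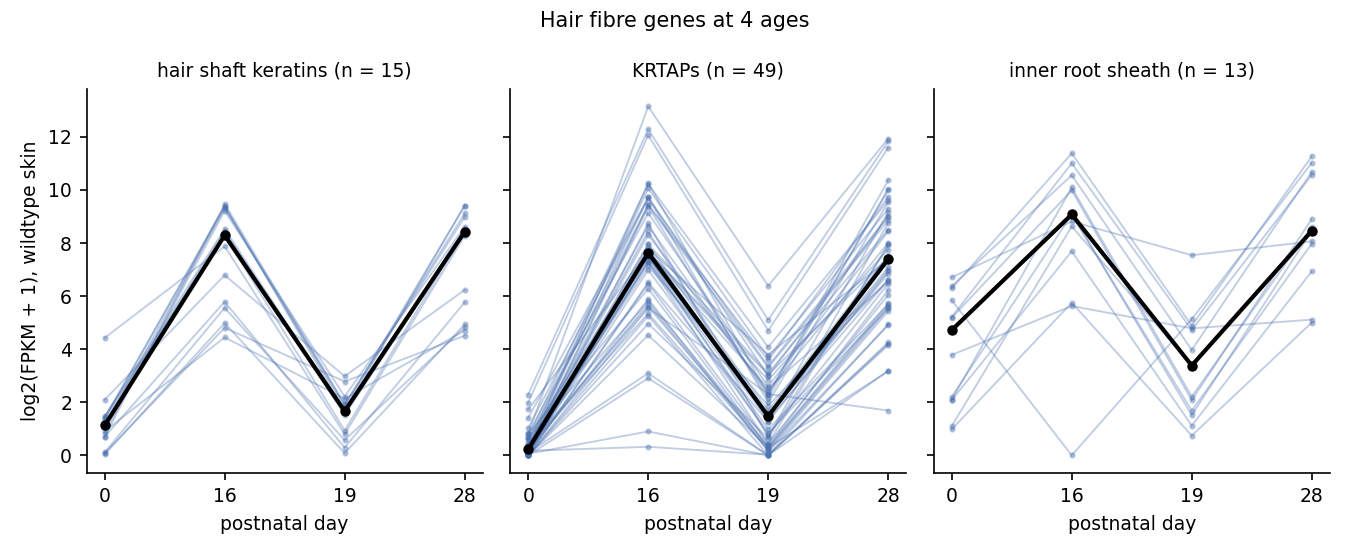
Level on the log2(FPKM + 1) scale against postnatal day in the 4 wildtype libraries, for hair shaft keratins, KRTAPs of the 3 composition classes and inner root sheath genes that passed the filter. Each thin line is a gene and the black line joins the medians, which are high at days 16 and 28 and low at days 0 and 19. The inner root sheath line at 0 on day 16 is Tchh.

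The KRTAPs included genes that moved by 2-fold in either direction, beside 3.19% of all tested genes called higher and 2.23% lower. Of 56 KRTAPs that passed the filter, among 57 measured, 9 were higher and 11 lower at day 28, with a median of -0.30. Their summed level was 24994 FPKM at day 28, against 33165 FPKM at day 16. Members of a KRTAP subfamily are near-identical in sequence, so the split of fragments between single members is uncertain.

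Among the high glycine and tyrosine KRTAPs, small proteins of the shaft cortex, 4 of 15 were higher and 2 lower, and all 4 higher genes belonged to the Krtap19 subfamily. Krtap19-1 stood at 241 FPKM at day 28, against 30.1 FPKM at day 16, a difference of 2.96. Krtap19-4 stood at 576 (day 28) and 90.6 FPKM (day 16), a difference of 2.66. The subfamily did not move as one, since Krtap19-9b, named after its values were seen, stood at 628 (day 28) and 1065 FPKM (day 16). Of 6 Krtap19 genes 4 were higher and 0 lower, the subfamily having been singled out after its values were seen. Krtap20-2 had the opposite change, with 2.23 FPKM at day 28, against 46.1 FPKM at day 16, a difference of -3.87. Krtap22-2, the most abundant KRTAP at day 16, fell to 3914 FPKM at day 28, against 9075 FPKM at day 16. The other leading genes of the class, Krtap8-1 and Krtap7-1, stood within 2-fold, at 3634 (day 28) and 5004 FPKM (day 16) for Krtap8-1 and at 3089 (day 28) and 4293 FPKM (day 16) for Krtap7-1.

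Among the cysteine-rich KRTAPs, which form disulphide bonds with keratins, the ultra-high sulphur class had 3 of 20 genes higher and 4 lower, with a median of -0.56. The high sulphur class had 1 of 14 higher and 4 lower, with a median of -0.18. Krtap5-2 had the largest difference among named genes above 0 in both libraries that rose, 4.61, with 29.5 FPKM at day 28, against 0.252 FPKM at day 16. Its neighbour Krtap5-3 stood at 18.1 (day 28) and 0.869 FPKM (day 16). The same subfamily held Krtap5-1, which was lower at 7.99 FPKM at day 28 against 22.1 FPKM at day 16. In the Krtap4 subfamily 3 members fell, Krtap4-13 standing at 8.10 (day 28) and 37.2 FPKM (day 16), Krtap4-9 at 50.7 (day 28) and 159 FPKM (day 16) and Krtap4-8 at 45.4 (day 28) and 126 FPKM (day 16). Krtap1-3 stood at 122 FPKM at day 28, against 347 FPKM at day 16, and Krtap1-4 at 65.1 (day 28) and 153 FPKM (day 16).

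KRTAP genes lie in clusters (GENCODE M21 coordinates, mouse build mm10). In that of chromosome 11 (chr11:99550130-99993994) 2 of 23 were higher and 7 were lower at a median of -0.68 and a summed level of 3946 FPKM at day 28 against 5757 FPKM at day 16. In the chromosome 16 cluster (chr16:88610705-89571183) 5 of 23 that passed were higher and 3 were lower at a median of 0.06. Predicted coding genes without a family name lie between the named KRTAPs. Of these 0 were higher and 10 lower of 15 on chromosome 11, and 0 higher and 5 lower of 9 on chromosome 16. Those on chromosome 7 went both ways, 1 higher and 1 lower of 5, and on chromosome 1 0 of 2 were past 2-fold. On chromosome 10 0 of 3 named KRTAPs and 0 of 12 unnamed models were past 2-fold.

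**Figure D2:**
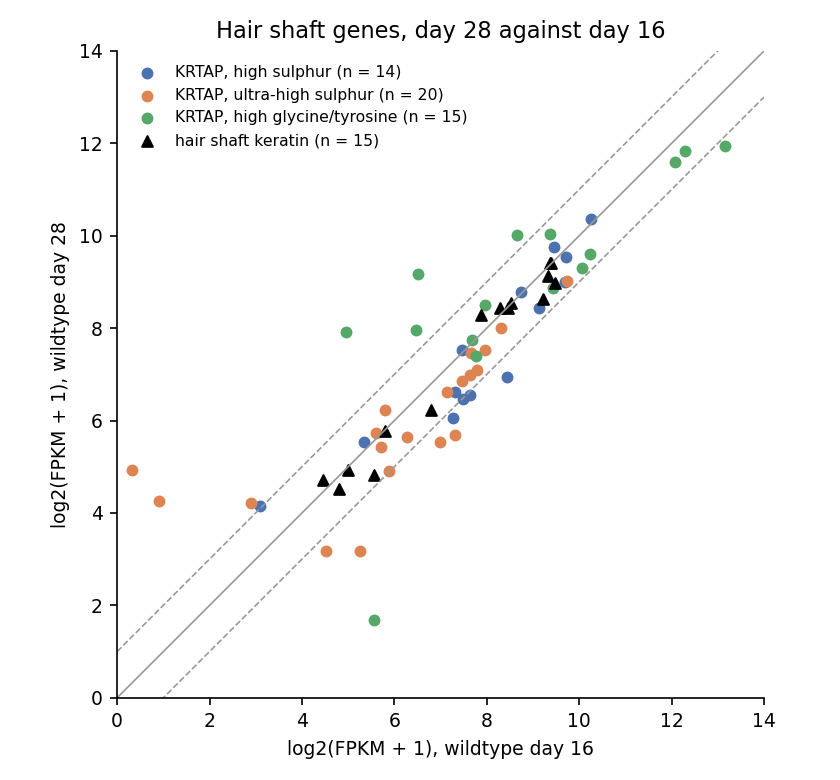
Level at wildtype day 28 (vertical axis) against level at wildtype day 16 (horizontal axis), both as log2(FPKM + 1), for 49 KRTAPs in 3 composition classes (circles) and 15 hair shaft keratins (triangles). The solid line marks equal levels and the dashed lines 2-fold. All 15 keratins lie between the dashed lines, while 8 of the KRTAPs lie above and 10 below them.

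Inner root sheath keratins were lower or alike at day 28. Of 13 sheath genes measured 3 were lower and 1, Tchh, was higher from a value of 0, and the median over all was -0.63. Krt72, a keratin of the sheath cuticle, fell to 392 FPKM at day 28, against 1092 FPKM at day 16. Krt26 fell to 251 FPKM at day 28, against 539.9 FPKM at day 16, and Krt28 to 478 FPKM at day 28, against 1014 FPKM at day 16. The most abundant sheath keratins were alike, Krt71 standing at 2466 (day 28) and 2666 FPKM (day 16) and Krt25 at 1643 (day 28) and 1505 FPKM (day 16). Tchh, which encodes trichohyalin of the sheath and medulla, was at 2076 FPKM at day 28 and listed at 0 at day 16, where the hairloss library had 1419 FPKM. An exact 0 in such a gene can be a failed estimate, and no fold is given. In the companion layer beside the sheath, Krt6a was lower, at 96.9 FPKM at day 28 against 235 FPKM at day 16.

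Most of the 27 regulators and markers of the hair matrix lay within 2-fold, and the median of the list was -0.26. A rise past that size was seen in 2 of them and a fall in 3. Both are larger shares than among all tested genes, of which 3.19% rose and 2.23% fell by this rule. The homeobox factor Dlx3, required for shaft differentiation, stood at 97.8 FPKM at day 28, against 97.7 FPKM at day 16. The calcium-binding protein gene S100a3 of the shaft cuticle stood at 1767 (day 28) and 1655 FPKM (day 16), and Hoxc13, a homeobox activator of hair keratin genes, at 32.7 (day 28) and 40.0 FPKM (day 16). Higher at day 28 were Selenbp1, a selenium-binding protein gene, at 94.5 at day 28 against 18.98 FPKM at day 16, and Lef1, the Wnt-responsive factor of matrix precursors, at 30.1 at day 28 against 13.9 FPKM at day 16. Lower at day 28 were Hr, the corepressor hairless that is needed for hair to regrow after the first cycle, at 48.7 FPKM at day 28 against 156 FPKM at day 16, Crym, a thyroid hormone-binding protein, at 238 at day 28 against 527 FPKM at day 16, and the factor Runx1 at 10.7 at day 28 against 25.0 FPKM at day 16.

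Cell cycle genes were higher at day 28 almost throughout the list. Of 28 that passed the filter, among 29 measured, 25 were higher and 0 were lower at a median of 1.32 against -0.03 over all genes. Levels ran from 2.59 to 71.9 FPKM at day 28 and from 1.31 to 33.9 FPKM at day 16. Birc5, which encodes survivin of the chromosomal passenger complex, stood at 27.99 FPKM at day 28, against 6.93 FPKM at day 16. Ccna2 (cyclin A2) stood at 28.01 (day 28) and 7.22 FPKM (day 16), and Ccnb2 (cyclin B2) at 19.1 (day 28) and 4.91 FPKM (day 16). Top2a, the topoisomerase that untangles replicated DNA, stood at 61.4 (day 28) and 20.7 FPKM (day 16), and Cdk1, the mitotic kinase, at 55.005 (day 28) and 19.5 FPKM (day 16). The proliferation marker Mki67 stood at 47.4 (day 28) and 16.1 FPKM (day 16). The replication clamp Pcna was higher by 1.06, at 71.9 (day 28) and 33.9 FPKM (day 16). The 3 tested genes within 2-fold, named after their values were seen, were E2f1, Mcm7 and Ccne1. Over the 4 wildtype ages the list's median level was 16.7 FPKM at day 0, 6.19 FPKM at day 16, 4.04 FPKM at day 19 and 18.4 FPKM at day 28, so day 28 lay near day 0 and day 16 near day 19.

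Replication-dependent histone genes, which supply new chromatin in S phase and were added as a list after values were seen, were higher to a similar degree. Of 63 tested 55 were higher and 0 were lower at a median of 1.65. Hist1h1t, Hist1h2br and Hist1h2ai were below 1 FPKM at day 16, passed the filter only through day 28 and could not be called lower. Hist1h1a stood at 401 FPKM at day 28, against 99.5 FPKM at day 16, and Hist1h3a at 262 (day 28) and 58.7 FPKM (day 16). Many of these genes are close copies of each other and their messages lack poly(A) tails, so their values are uncertain one by one.

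Promoters of 3 of the higher cell cycle genes are shown because these members moved together and hold elements known from genes of late cell cycle phases. Birc5, with the largest difference of the list, held neither element. The sequences are the 160 bases before the RefSeq start (build GRCm38.p6), 5′ to 3′ on the gene's strand. Capitals mark the CCAAT box (CCAAT, bound by NF-Y) and the cell cycle homology region (TTTGAA), each on either strand, ATTGG and TTCAAA being their reverse complements.
Cdk1 (chr10:69352913-69353072, minus strand): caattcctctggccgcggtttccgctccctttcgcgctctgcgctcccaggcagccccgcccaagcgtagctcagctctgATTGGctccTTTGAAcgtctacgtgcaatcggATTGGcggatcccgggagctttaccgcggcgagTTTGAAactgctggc
Top2a (chr11:99024190-99024349, minus strand): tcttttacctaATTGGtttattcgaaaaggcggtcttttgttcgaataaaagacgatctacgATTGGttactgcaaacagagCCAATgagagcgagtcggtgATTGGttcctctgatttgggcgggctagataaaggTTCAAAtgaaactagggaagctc
Ube2c (chr2:164769769-164769928, plus strand): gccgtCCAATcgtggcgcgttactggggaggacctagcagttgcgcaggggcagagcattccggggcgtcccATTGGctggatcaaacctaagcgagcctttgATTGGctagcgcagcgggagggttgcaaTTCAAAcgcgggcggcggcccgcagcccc
In the 250 bases before the start, CCAAT was found in 19 of 24 cell cycle genes that have a RefSeq promoter entry, against 37.5% of 27025 genes. TTTGAA was found in 8 of 24, against 18.3% of genes. Of the 20 with an entry that were higher at day 28, 17 held CCAAT and 7 held TTTGAA. Of the other 4, 2 held CCAAT and 1 held TTTGAA. A match is a run of letters and says nothing of binding in these samples.

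Genes of melanin synthesis were higher at day 28. Of 17 measured and tested, 11 were higher and 0 were lower at a median of 2.50, which became 3.51 when the pseudocount was 0.1 and 1.18 when it was 5. The summed level of the list was 675 FPKM at day 28, against 125 FPKM at day 16. Tyr, tyrosinase, which starts melanin synthesis, stood at 23.8 FPKM at day 28, against 1.16 FPKM at day 16, a difference of 3.52. Tyrp1, tyrosinase-related protein, which acts later in the same pathway, stood at 101 (day 28) and 5.995 FPKM (day 16), a difference of 3.87. Dct, dopachrome tautomerase, stood at 155 (day 28) and 13.5 FPKM (day 16). Genes of the melanosome, the organelle in which melanin forms, were also higher, Pmel, its fibril protein, standing at 130.1 FPKM at day 28 against 7.99 FPKM at day 16 and Mlana at 75.4 at day 28 against 6.03 FPKM at day 16. The cation channel gene Trpm1 stood at 50.1 (day 28) and 3.55 FPKM (day 16). Oca2, a melanosomal transport protein, stood at 10.5 FPKM at day 28, against 0.223 FPKM at day 16. Mc1r, the receptor that switches pigment cells to dark melanin, stood at 3.92 FPKM at day 28, against 0.0779 FPKM at day 16, a level below the 3-fragment floor of a 1 kb transcript. Oca2 and Mc1r, below 1 FPKM at day 16, passed the filter only through day 28 and could not be called lower.

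Genes of the pigment lineage that are needed before melanin synthesis did not move with the enzymes. Mitf, the transcription factor that directs the lineage, stood at 25.8 FPKM at day 28, against 29.8 FPKM at day 16. Sox10, a factor of neural crest derivatives, stood at 2.93 (day 28) and 2.72 FPKM (day 16), and Kit, the receptor tyrosine kinase of pigment cells, at 8.49 (day 28) and 8.41 FPKM (day 16). These genes are also used by other skin cells, Kit by mast cells and Sox10 by Schwann cells, and fewer cells of a type cannot be told apart from less RNA per cell in whole skin. Kitl, the ligand of Kit, was higher at day 28, at 19.8 FPKM at day 28 against 6.43 FPKM at day 16. The ligand Edn3 stood at 2.46 (day 28) and 0.897 FPKM (day 16), a difference of 0.87, and Edn1 at 6.26 (day 28) and 12.5 FPKM (day 16), a difference of -0.90. Pomc, the precursor of melanocortins, stood at 0.0680 FPKM at day 28 and 0.156 FPKM at day 16, close to the floor. At the other wildtype ages Tyr was at 6.57 FPKM (day 0) and 0.445 FPKM (day 19), and Pmel at 38.0 FPKM (day 0) and 6.41 FPKM (day 19).

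Mitf protein is known to bind an E-box extended at its 5′ side, TCATGTG, before genes of melanin synthesis, and the promoters that hold these letters are shown for that reason. They are the 160 bases before the RefSeq start (GRCm38.p6) on the gene's strand, with TCATGTG in capitals.
Tyr (chr7:87493513-87493672, minus strand): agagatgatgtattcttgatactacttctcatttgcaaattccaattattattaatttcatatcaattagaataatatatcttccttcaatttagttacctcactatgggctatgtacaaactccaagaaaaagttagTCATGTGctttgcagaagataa
Tyrp1 (chr4:80834053-80834212, plus strand): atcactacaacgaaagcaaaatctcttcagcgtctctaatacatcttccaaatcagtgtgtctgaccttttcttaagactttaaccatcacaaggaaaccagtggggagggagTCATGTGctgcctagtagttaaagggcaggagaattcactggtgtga
Dct (chr14:118052247-118052406, minus strand): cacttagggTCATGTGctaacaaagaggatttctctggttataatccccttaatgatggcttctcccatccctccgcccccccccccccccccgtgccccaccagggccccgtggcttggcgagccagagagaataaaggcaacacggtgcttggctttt
Trpm1 (chr7:64153675-64153834, plus strand): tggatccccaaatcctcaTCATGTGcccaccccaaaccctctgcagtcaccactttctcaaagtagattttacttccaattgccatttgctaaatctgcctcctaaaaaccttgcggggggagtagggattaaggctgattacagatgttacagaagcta
Mc1r (chr8:123406922-123407081, plus strand): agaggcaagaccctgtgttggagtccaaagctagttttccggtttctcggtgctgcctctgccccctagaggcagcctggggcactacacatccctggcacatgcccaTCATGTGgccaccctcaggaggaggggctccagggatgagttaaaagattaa
Within 250 bases before the start, on either strand, TCATGTG was found in 6 of 11 pigment cell genes with an entry, against 3.72% of 27025 genes. All 6, namely Tyr, Tyrp1, Dct, Trpm1, Mc1r and Slc24a5, were among the 7 with an entry that were higher at day 28. The 4 entries of genes within 2-fold, those of Mitf, Kit, Rab27a and Ednrb, did not hold it, and a count of 0 in 4 lies near the share of all genes. Pmel and Mlana have no entry and are not counted. A link between the letters and the differences was not tested. Dct has a second copy on the opposite strand outside the printed stretch, starting 232 bases before the start. The counts describe letters near annotated starts, and distal elements were not searched.

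**Figure D3:**
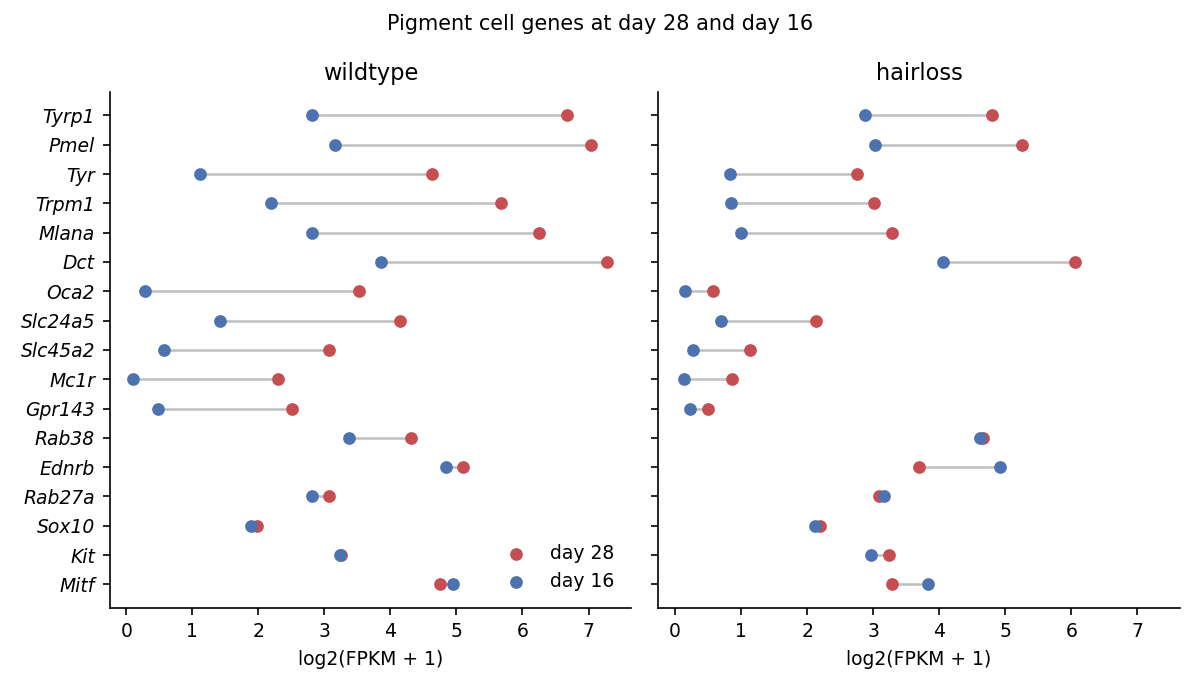
Level of 17 pigment cell genes on the log2(FPKM + 1) scale, wildtype in the left panel and hairloss in the right, with red points for day 28 and blue points for day 16. In wildtype skin the upper 11 genes lie at least 1 unit higher at day 28 and the lower 6 lie within 1 unit. In hairloss skin the median difference of the list was 0.73.

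Among growth signals of the follicle, most Wnt, hedgehog and BMP pathway genes lay within 2-fold. Over all tested genes 3.19% were called higher and 2.23% lower. Sonic hedgehog, made by matrix cells on one side of the bulb, drives their division and acts through the receptor Ptch1. Shh itself stood at 3.61 FPKM at day 28, against 1.33 FPKM at day 16, a difference of 0.99 and so just under the 2-fold size. Of 14 pathway genes 2 were higher and 0 lower, among them the ligand-binding inhibitor Hhip, at 4.74 (day 28) and 1.04 FPKM (day 16). The signal-dependent factor Gli1 stood at 8.63 (day 28) and 4.49 FPKM (day 16), a difference of 0.81, and Ptch1 at 20.8 (day 28) and 14.3 FPKM (day 16).

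Of 31 Wnt pathway genes tested 4 were higher and 2 lower at day 28. Besides Lef1, the higher genes were secreted modulators, namely the R-spondin ligands Rspo2 (1.32 at day 28 against 0.0184 FPKM at day 16) and Rspo3 (2.41 at day 28 against 0.418 FPKM at day 16), which stabilise Wnt receptors, and the inhibitor Wif1 (17.3 at day 28 against 6.16 FPKM at day 16). Rspo2 and Rspo3 passed the filter only through day 28, and Rspo2 at day 16 lay below the 3-fragment floor of a 1 kb transcript. Lower were the inhibitor Dkk2, at 2.17 at day 28 against 7.46 FPKM at day 16, and the ligand Wnt7b, at 3.32 at day 28 against 8.02 FPKM at day 16. Of 18 BMP pathway genes, whose signal opposes hair growth onset and promotes shaft differentiation, 0 were higher, and 1 was lower, the antagonist Grem1 at 2.21 at day 28 against 6.51 FPKM at day 16. Dermal papilla markers had 5 of 20 higher and 0 lower, with a median of 0.48, namely Hhip, Wif1 and Rspo3 from above, the matrix proteoglycan Vcan at 28.7 at day 28 against 12.3 FPKM at day 16, and Fgf7, a keratinocyte growth factor, at 6.25 at day 28 against 2.42 FPKM at day 16.

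Fgf5, the ligand whose loss in mice gives overlong angora hair, was lower at day 28. It stood at 2.74 FPKM at day 28, against 9.05 FPKM at day 16, a difference of -1.43. At the ages with low shaft keratins it stood at 0.233 FPKM (day 0) and 0.418 FPKM (day 19). Of 15 tested genes linked to regression Fgf5 and Hr were lower and 0 higher, with a median of -0.14. Stem cell and bulge markers had 0 of 18 higher and 4 lower, among them Sox9, a factor of bulge and outer sheath cells, at 16.7 at day 28 against 34.4 FPKM at day 16 and Plet1 at 26.5 at day 28 against 61.9 FPKM at day 16. Krt15 and Cd34, bulge markers, lay within 2-fold, at 350.2 (day 28) and 421 FPKM (day 16) for Krt15 and at 73.7 (day 28) and 65.6 FPKM (day 16) for Cd34.

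Hox genes, which record position along the body axis by their order in 4 clusters, included genes that were higher at day 28. Of 25 tested 10 were higher and 0 lower. All 10 belonged to paralogue groups 7 to 10, where 11 were tested, and 0 of 13 tested in groups 1 to 6 were past 2-fold. This division was made after the values were seen. Of 9 genes measured in groups 11 to 13 only Hoxc13 passed the filter, within 2-fold, so those groups were hardly covered. Hoxa11 and Hoxc11, at 0.446 FPKM (Hoxa11) and 0.409 FPKM (Hoxc11) at day 28 and listed at 0 at day 16, did not pass. Hoxa7, Hoxa9, Hoxa10, Hoxb8, Hoxb9, Hoxc9 and Hoxc10 were below 1 FPKM at day 16 and passed the filter only through day 28. Such genes could not be called lower. Hoxd10, at 0.262 (day 28) and 0.587 FPKM (day 16), did not pass it and is not counted. Hoxa7 stood at 15.2 FPKM at day 28, against 0.635 FPKM at day 16, a difference of 3.31. Hoxa9 stood at 5.29 (day 28) and 0.132 FPKM (day 16), and Hoxa10 at 2.63 (day 28) and 0.0196 FPKM (day 16). That day 16 value of Hoxa10 lay below the 3-fragment floor of a 1 kb transcript. Hoxc10 was at 1.98 FPKM at day 28 and listed at 0 at day 16. In the same groups Hoxd9 was not higher, at 0.723 (day 28) and 1.24 FPKM (day 16). Groups 2 and 3 were alike, as in Hoxb2 at 5.28 (day 28) and 4.63 FPKM (day 16) and Hoxb3 at 6.73 (day 28) and 7.87 FPKM (day 16). Hoxa9 was at 2.83 FPKM at day 0 and 0.368 FPKM at day 19. The labels do not name the site from which skin was taken, so site and age cannot be told apart for these genes, and the part of site in the other differences was not tested.

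**Figure D4:**
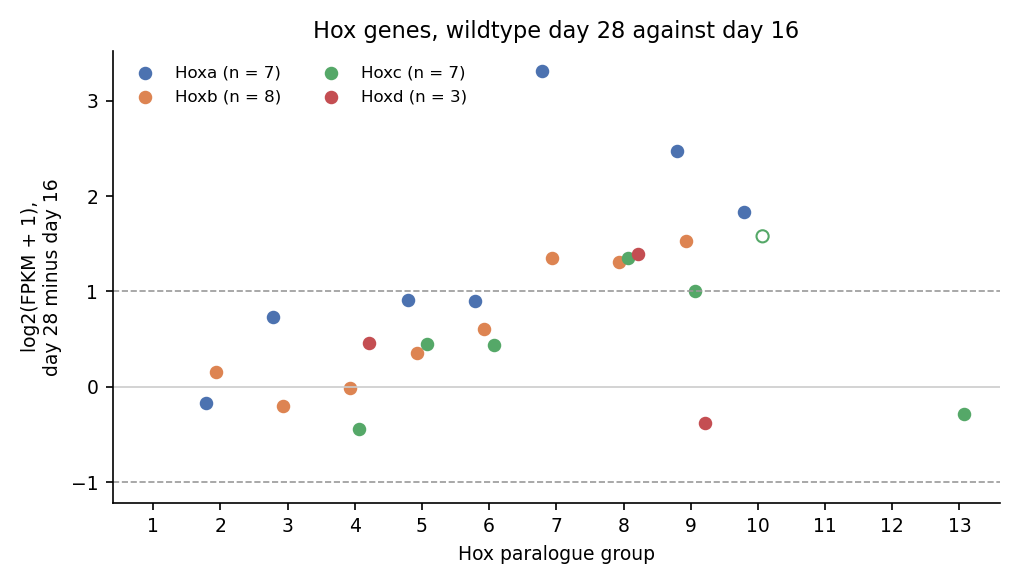
Difference in log2(FPKM + 1), wildtype day 28 minus day 16, against Hox paralogue group for the 25 Hox genes that passed the filter, coloured by cluster. Dashed lines mark 2-fold and the open circle is Hoxc10, listed at 0 at day 16. The 10 genes at or above the upper line all lie in groups 7 to 10, and groups 11 to 13 are represented by Hoxc13 alone.

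Genes of the dermis and of tissues under the skin moved as well. Of 15 fibrillar and related collagens tested 5 were higher, and of 18 genes that fold, cross-link or cleave collagen 5 were higher and 0 lower, with medians of 0.71 and 0.65. Col1a2, a chain of the main skin collagen, stood at 3575 FPKM at day 28, against 1215 FPKM at day 16. Its partner Col1a1 was listed at 0 at day 28 and at 1236 FPKM at day 16, and it was also listed at 0 at day 19, so its values are doubtful and it makes up the 1 lower call. Serpinh1, the collagen chaperone, stood at 399.5 (day 28) and 154 FPKM (day 16), and P4ha2, which hydroxylates collagen prolines, at 34.2 (day 28) and 11.4 FPKM (day 16). Elastin (Eln) went the other way, at 31.4 FPKM at day 28, against 106 FPKM at day 16.

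Fast and slow skeletal muscle genes differed in direction. Of 20 fast-fibre genes tested 8 were higher and 1 was lower at a median of 0.92 and summed levels of 4959 FPKM at day 28, against 2546 FPKM at day 16. Acta1, skeletal actin, stood at 1112 (day 28) and 537 FPKM (day 16), and the glycolytic enzyme gene Eno3 at 129 (day 28) and 51.8 FPKM (day 16). The lower gene was Myh2, a myosin of oxidative fast fibres, at 4.74 at day 28 against 19.002 FPKM at day 16. Of 8 slow-fibre genes 5 were lower and 0 higher, or 3 lower without the 2 listed at 0 at day 28, with summed levels of 62.9 FPKM at day 28, against 109 FPKM at day 16. The slow myosin genes Myh7 and Myl2 were listed at 0 at day 28 and stood at 6.74 FPKM (Myh7) and 15.99 FPKM (Myl2) at day 16, zeros that can be failed estimates, while Tnnc1, slow troponin C, stood at 0.425 (day 28) and 4.70 FPKM (day 16). How much underlying muscle each skin piece held is not given, and its part in the other differences was not tested.

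Most markers of nerve, vessel and fat lay within 2-fold, where 3.19% of all tested genes were called higher and 2.23% lower. Schwann cell genes had 0 of 14 higher and 2 lower at a median of -0.75 and summed levels of 101 FPKM at day 28, against 199 FPKM at day 16. Among the lower ones was the myelin gene Mbp, at 12.7 at day 28 against 39.2 FPKM at day 16. Endothelial genes had 0 of 19 higher and 1 lower at a median of -0.50, and white fat genes 2 of 20 higher and 1 lower, with a median of -0.27. Macrophage genes had 0 of 14 past 2-fold, with a median of 0.47 and summed levels of 476 FPKM at day 28, against 353 FPKM at day 16. Of 9 mast cell genes Cpa3, a mast cell carboxypeptidase, was lower, at 15.7 at day 28 against 35.2 FPKM at day 16.

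Among genes listed for the epidermis some barrier genes passed 2-fold and keratins did not. The libraries are of whole skin, and the keratin list also holds Krt15, named above as a bulge marker. The part of the follicle in these levels was not tested. Of 10 epidermal keratins 0 were past 2-fold, but their median was -0.51. The basal layer keratins Krt5 and Krt14 lay just within that size, at 712 (day 28) and 1308 FPKM (day 16) for Krt5, a difference of -0.88, and at 619.7 (day 28) and 1103 FPKM (day 16) for Krt14, a difference of -0.83. Of 20 cornified envelope genes 4 were higher and 2 lower. Flg, filaggrin, which bundles keratins in the outer layers, stood at 195 FPKM at day 28, against 73.2 FPKM at day 16, and Casp14, the protease involved in its breakdown, at 27.2 (day 28) and 12.1 FPKM (day 16). The other higher genes, Rptn and Hrnr, were at 13.2 FPKM (Rptn) and 6.44 FPKM (Hrnr) at day 28 and listed at 0 at day 16. In the hairloss library of day 16 they stood at 214 FPKM (Rptn) and 7.097 FPKM (Hrnr). Both lie on chromosome 3, as does Tchh, which was also listed at 0 at day 16. These zeros can be failed estimates, and without them only Flg and Casp14 were higher, beside the 2 lower genes. Lower were Cnfn, at 119 FPKM at day 28 against 294 FPKM at day 16, and the protease gene Asprv1, at 302 at day 28 against 683 FPKM at day 16. Late cornified envelope genes had 0 of 16 past 2-fold, beside 5.42% of all tested genes.

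Among single genes with the largest differences outside these groups, several encode enzymes. Gnmt, glycine N-methyltransferase, which uses up S-adenosylmethionine, stood at 70.8 FPKM at day 28, against 3.20 FPKM at day 16, and at 1.59 FPKM at day 0 and 0.575 FPKM at day 19. Ptgds, a prostaglandin D2 synthase, stood at 56.8 (day 28) and 7.41 FPKM (day 16). Gal, the neuropeptide galanin, stood at 6.48 FPKM at day 28, against 0.0485 FPKM at day 16, below the 3-fragment floor of a 1 kb transcript. Syt4, a vesicle protein, stood at 8.09 (day 28) and 0.342 FPKM (day 16). The metallothionein genes Mt1 and Mt2, metal-binding proteins, stood at 612 (day 28) and 121 FPKM (day 16) for Mt1 and at 805 (day 28) and 130.3 FPKM (day 16) for Mt2. Mt4, a metallothionein of stratified epithelia that was looked up after the others, was within 2-fold at 1256 (day 28) and 1024 FPKM (day 16).

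Among named genes above 0 in both libraries the largest fall was in Cyp2g1, a cytochrome P450, at 0.491 FPKM at day 28, against 65.1 FPKM at day 16, with 142 FPKM at day 19. Amtn, amelotin, known from enamel formation, stood at 0.0629 FPKM at day 28, below the 3-fragment floor, and 21.6 FPKM at day 16, and it was at 0.0553 FPKM at day 19, so that of the 4 wildtype ages only day 16 had a level above 1 FPKM. Atp12a, a proton and potassium pump, stood at 10.9 (day 28) and 105 FPKM (day 16), and Plb1, a phospholipase, at 8.53 (day 28) and 53.1 FPKM (day 16). Nnat, an imprinted gene, stood at 4.74 FPKM at day 28, against 47.4 FPKM at day 16. Igf2, an imprinted growth factor gene of early life, stood at 2.93 FPKM at day 28, against 17.9 FPKM at day 16, and at 509 FPKM at day 0. H19, its noncoding neighbour, stood at 81.7 (day 28) and 154 FPKM (day 16). Uqcrc1, a subunit of respiratory complex III, stood at 2.19 FPKM at day 28, against 17.4 FPKM at day 16, and at 1.90 FPKM at day 19 and 5.51 FPKM at day 0.

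**Figure D5:**
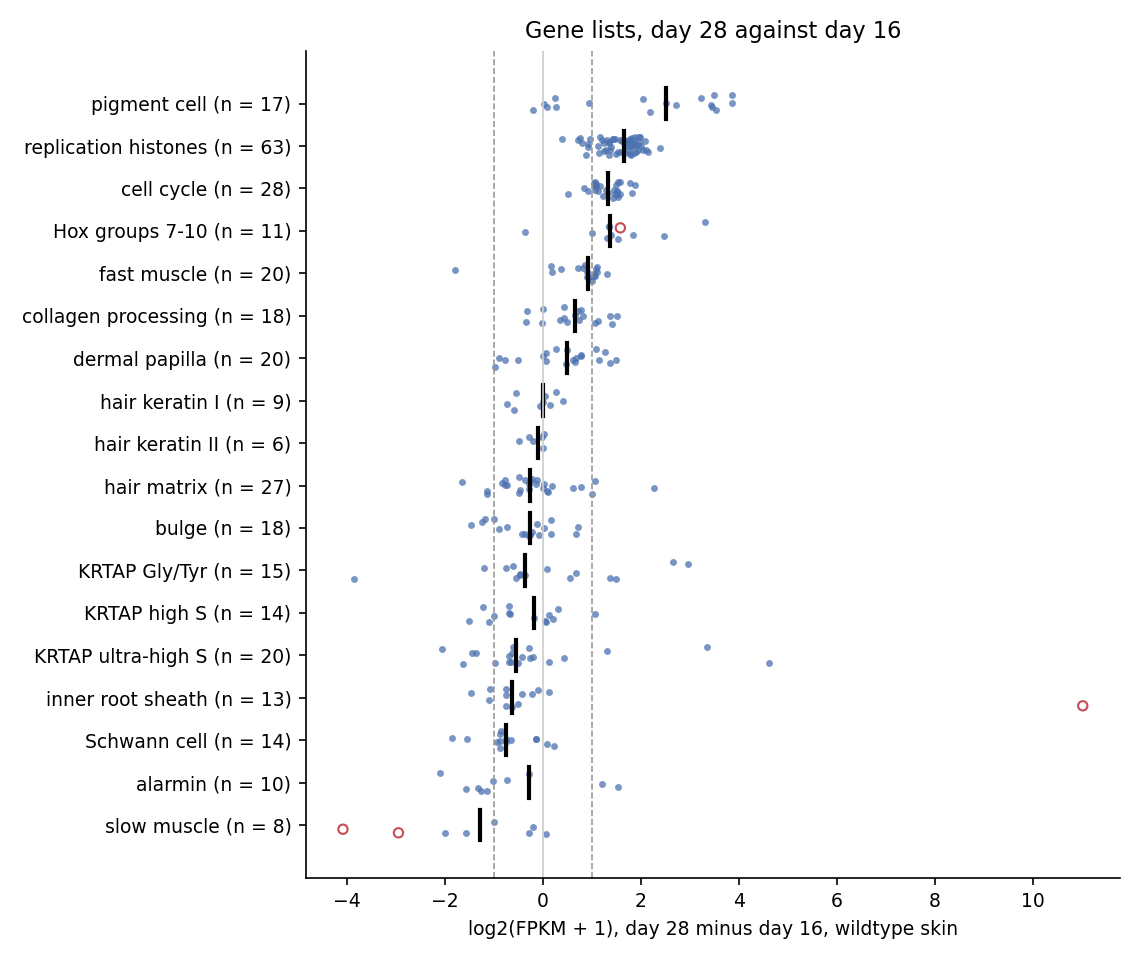
Difference in log2(FPKM + 1), wildtype day 28 minus day 16, for members of 18 gene lists that passed the filter. Each blue point is a gene, red open circles are genes listed at 0 in 1 of the 2 libraries, black bars are medians over all measured members and dashed lines mark 2-fold. Pigment cell, histone and cell cycle lists lie to the right of the upper line at their medians of 2.50, 1.65 and 1.32, and hair shaft keratins lie around 0.

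Set against day 19, the genes higher at day 28 were for the most part lower still at day 19 than at day 16. Of the 424 higher genes 261 (61.6%) had a day 19 level below both other ages, 130 lay between them and 33 above both, while 41.9% of all tested genes lay below both. Of the 296 lower genes 103 (34.8%) had a day 19 level above both ages and 111 (37.5%) below both. Over all tested genes these shares were 38.6% and 41.9%. Called genes have a gap of at least 2-fold between day 28 and day 16, wider than in other tested genes. A day 19 level falls inside that gap more readily, so the shares of all tested genes are not like for like. In hairloss skin 73 of the 424 genes (17.2%) were also at least 2-fold higher at day 28 than at day 16 and 21 were lower, where 3.56% and 5.07% of 13438 tested genes were called. Of the 296 lower genes 111 (37.5%) were also lower in hairloss skin and 20 were higher. The hairloss libraries differed in sex-linked RNA, the Y-linked genes summing to 0.00545 FPKM at day 28, against 66.2 FPKM at day 16, and Xist standing at 50.2 (day 28) and 0.00961 FPKM (day 16). They also differed in hair growth genes, with a type I shaft keratin median of 0.0410 FPKM at day 28, against 54.6 FPKM at day 16. The part of these in the hairloss values was not tested. Across 12923 genes tested in both genotypes the differences had a Pearson correlation of 0.279 and a Spearman correlation of 0.320, as a description across genes of the same 4 libraries.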

How the data were processed

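Total RNA of whole mouse skin was sequenced, and the authors deposited 1 value per Ensembl gene and library, 55418 genes in each file, under headers that name no unit. These deposited values were read as FPKM, because Cuffdiff is named per the submitters' processing notes, which also name cutadapt and build mm10 without versions. The aligner, annotation release, strandedness and any scaling between libraries by the authors are not stated in the sources used. Gene types, coordinates and missing symbols came from GENCODE M21, the same build, which lacked 267 of the deposited genes. Symbols were joined on the Ensembl ID.

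Protein-coding genes of at least 1 FPKM in either library were compared as log2(FPKM + 1), with a 2-fold size rule and no test, using Python 3.11.15, numpy 2.4.6 and pandas 2.3.3. The size rule was tested on simulated data that carry counting error only. Gene lists (63, and 7 more added after values were seen) are described by counts and by their median over all measured members. Depth was estimated from single-transcript genes longer than 1000 bases, as the depth at which most carry the value of 1 fragment. Floors cover counting error only. The members and lists were chosen with earlier results of these data known. Named genes are the 15 largest differences in each direction without predicted genes (6 of that size among the lower ones were left out, 0 among the higher), up to 6 members of a list by difference and 4 by level, any member of regulator and ligand lists, genes listed at 0 against at least 20 FPKM, and Xist, H19 and Meg3. The pigment list was read as a regulator list, Meg3 was near 0 throughout (at most 0.104 FPKM), and Defb8, a defensin gene, was at 52.2 FPKM at day 28 and listed at 0 in the other 7 libraries. A few genes past the size rule are counted in their lists but not reported here by name.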

Additional observations from a re-analysis of the deposited data

Results flagged for a closer look

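A flagging rule picked out 1 list and 4 genes that differed in the opposite direction between the same ages in hairloss skin. They are not the full number. Of the 424 higher genes 21, and of the 296 lower genes 20, were at least 2-fold the other way there. Each group has 1 library, and the difference between the genotypes was not tested. Slow muscle genes had a median difference of -1.29 in wildtype and 0.97 in hairloss skin. The wildtype median rested in part on Myh7 and Myl2, both listed at 0 at day 28, and was -0.65 without genes at 0 in 1 library and -0.59 with a pseudocount of 5. Krtap5-2 had a difference of 4.61 in wildtype and -2.19 in hairloss skin, where it was listed at 0 at day 28. Krtap5-3, with differences of 3.36 in wildtype and -1.74 in hairloss skin, and Krtap19-1, with 2.96 in wildtype and -1.95 in hairloss skin, were likewise listed at 0 in hairloss skin at day 28. Cyp1a1 had a difference of -2.92 in wildtype skin, with 4.05 FPKM at day 28, against 37.2 FPKM at day 16, and one of 1.13 in hairloss skin, with 308 FPKM at day 28 and 139.9 FPKM at day 16.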

How the results depend on the processing

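No paired analysis was possible because each group has 1 library. The counts of 424 higher and 296 lower genes moved with the pseudocount, to 648 and 538 with 0.1 and to 163 and 126 with 5. A 4-fold size, chosen after seeing the data, left 43 higher and 38 lower. With all gene types the lower genes numbered 567 and the higher ones 558. Under the other settings tried, namely both rescalings of the libraries, the stricter filter, no filter and leaving out genes at 0, the counts stayed within 1.5 times, from 337 to 454 higher and from 243 to 296 lower. Rescaling moved the median of all genes by less than 0.1, to -0.03 and 0.01. Under the alternatives run, 305 recomputed list medians stayed within 1.5-fold of the reported one and 9 moved further (in the lists of pigment, slow muscle, small proline-rich, alarmin and neutrophil genes), and 3456 gene differences stayed and 96 moved. In 0 of them did a called value change sign. At this depth values under about 0.09 FPKM in a 1 kb transcript rest on fewer than 3 fragments, and no statement here carries replicate error.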

Other observations

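The list of the aryl hydrocarbon receptor, the sensor of dioxin-like compounds, with its partner and targets had 3 of 8 tested members lower at day 28 and 0 higher. The shares of all tested genes were 2.23% lower and 3.19% higher. Besides Cyp1a1, these were Cyp1b1, at 10.9 FPKM at day 28, against 36.2 FPKM at day 16, and Aldh3a1, at 11.1 (day 28) and 32.7 FPKM (day 16). The 3 genes stood higher still at day 19, with 105 FPKM for Cyp1a1, 55.1 FPKM for Cyp1b1 and 67.4 FPKM for Aldh3a1.

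Alarmins and wound-type genes, which keratinocytes make in stressed skin, had 2 of 10 tested members higher and 6 lower at day 28. For this and the next lists, the shares of all tested genes were 3.19% higher and 2.23% lower. S100a9 and S100a8, the calprotectin subunits, were lower, at 3.07 (day 28) and 16.6 FPKM (day 16) for S100a9 and at 44.4 (day 28) and 134 FPKM (day 16) for S100a8. Both are also neutrophil genes, and they were the 2 of 12 neutrophil genes that passed the filter. Stfa3, a stefin, went the other way with 45.9 FPKM at day 28, against 15.3 FPKM at day 16. Among chemokines Ccl8 was higher, at 212 at day 28 against 77.7 FPKM at day 16, while Cxcl12 (37.0 at day 28 against 81.8 FPKM at day 16) and Ccl27a, made by keratinocytes (229.8 at day 28 against 498 FPKM at day 16), were lower. Sprr4 and Sprr2h, small proline-rich proteins of the cornified envelope, were lower at day 28, at 79.8 at day 28 against 370.2 FPKM at day 16 for Sprr4 and at 3.86 at day 28 against 50.1 FPKM at day 16 for Sprr2h. Smooth muscle genes had 0 of 13 higher and 2 lower, Myh11 standing at 5.86 (day 28) and 20.5 FPKM (day 16) and Cnn1 at 2.78 (day 28) and 7.99 FPKM (day 16). Heat shock, basement membrane, mitochondrially encoded and fatty acid synthesis lists had 0 members past 2-fold. With 5.42% of all tested genes past it, a count of 0 in lists of 10 to 18 tested genes lies near that share.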
